A study of Mus musculus with 59 samples.

Results

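The genes described here are the neighbours of Slc25a1 and Mrpl40 on mouse chromosome 16, in the stretch that matches the human 22q11.2 region. They were taken as a fixed list of 34 gene symbols, with older symbols counted as the same gene and with Slc25a1 and Mrpl40 left out. Of the 34, 33 had a row among the 57180 gene rows of the count table, and Arvcf was not analysed here. Ess2 stands under its older symbol Dgcr14, and Septin5 under a symbol that had been turned into a date. After a filter on low counts 30 of the 33 could be tested, while Tssk2, Gp1bb and Gsc2 held too few reads. RNA was measured by poly(A) RNA sequencing in cortex and hippocampus of male mice with 4 labelled genotypes. Wild type was Mrpl40 +/+, Slc25a1 +/+, the first mutant group was Mrpl40 +/+, Slc25a1 -/+ (Slc25a1 het), the second Mrpl40 -/+, Slc25a1 +/+ (Mrpl40 het), and the third Mrpl40 -/+, Slc25a1 -/+ (double het). In that order cortex had 9, 7, 7 and 7 libraries and hippocampus 8, 7, 7 and 7, taken from 30 animals, and both tissues of 29 of them were sequenced. The labels give no age, strain, kind of mutation or litter, and they do not say whether the double het animals carry both alleles on the same chromosome.

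In humans, loss of a copy of the 22q11.2 region causes a syndrome with heart, immune, palate and psychiatric features, and mouse models have been made by deleting the matching stretch or single genes in it. The neighbours do many unrelated things. Some act at membranes and synapses (Zdhhc8, Pi4ka, Septin5, Snap29, Tango2), some at the cell surface (Rtn4r, Cldn5, Dgcr2), some in the nucleus (Tbx1, Hira, Dgcr8, Med15) and some in mitochondria (Prodh, Txnrd2, Aifm3). The study altered Slc25a1, the mitochondrial citrate carrier, and Mrpl40, a protein of the mitochondrial ribosome. The neighbours were not targets, so that they can be asked 2 things: how they differ between the tissues, and whether their own levels differ between the labelled genotypes.

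In GRCm38 the members run along chromosome 16 from Pi4ka (chr16:17280351-17406314, minus strand) to Hira (chr16:18877037-18970309, plus strand). Slc25a1 lies among them at chr16:17925223-17928219 on the minus strand, between Gsc2, whose start is 13.2 kb away, and Dgcr6, whose start is 124.6 kb away on the other side. Mrpl40 lies at chr16:18872018-18876862 on the minus strand, between Ufd1 and Hira, and its start is 175 bases from that of Hira, which is read the other way. Counts of a few members could be affected by overlapping gene models. Exons on the same strand cover 92.9% of the exon length of Gp1bb, 83.7% of Septin5, 44.7% of Hira, 26.5% of Dgcr2 and 16.9% of Ranbp1. Exons on the opposite strand cover 16.5% of Trmt2a, 13.9% of P2rx6, 13.3% of Slc7a4 and 10.7% of Dgcr8. The strand of a read cannot separate exons on the same strand, so the values of the genes with same-strand overlap are uncertain either way. The libraries were made with a kit that keeps the strand, but whether counting used it is not stated. That leaves the values of the genes with opposite-strand overlap uncertain to that extent.

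The total count per library ranged from 21443017 to 32120906. Slc25a1, given as the count scaled to library size (CPM), spanned 12.1 to 26.3 in wild-type cortex, 11.1 to 24.3 in cortex labelled Slc25a1 het, 21.8 to 24.7 for the Mrpl40 het label and 10.8 to 21.9 for double het. Its level went against the label in 6 animals in both tissues (wild type 6 and 7 low, Slc25a1 het 12 and 13 high, double het 29 and 30 high). Genotypes are therefore given as the libraries were labelled. Some counts that rest on them, such as the members called in a comparison, are also given without these 6 animals. Others are given only with these animals included. Mrpl40 did not separate the groups: its medians lay between 17.1 and 17.8 CPM in the 4 cortex groups and between 15.1 and 16.2 CPM in the 4 hippocampus groups, so that its level does not check the Mrpl40 labels. The tissues differed in marker genes as labelled. The 6 cortex layer markers summed to 757 to 1067 CPM in cortex and 165 to 263 in hippocampus, and the 8 hippocampus markers to 628 to 776 and 1267 to 2026 CPM. Hippocampus libraries of 3 animals stood apart in marker sums: animal 8 had the highest sum of cortex layer markers (263 CPM), and animals 22 and 30 the highest sums of choroid plexus markers (75.5 and 94.7 CPM). Nothing says how the pieces of tissue were cut, and p-values measure the spread between animals of a labelled group.

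The members highest per length in cortex were Aifm3, Septin5, Rtn4r, Pi4ka and Zdhhc8. Levels of different genes are given as CPM per kb of exon, which corrects for transcript length. In cortex Aifm3, which encodes a protein related to apoptosis-inducing factor, had a median of 56.4 CPM per kb (45.2 to 67.5 over 30 libraries). Septin5, a filament protein of nerve terminals, had a median of 54.9 (51.6 to 59.5), and Rtn4r, the receptor for the axon growth inhibitor Nogo, had the same median of 54.9 (45.6 to 61.9). These 3 ranges overlap, and all 3 lie above that of the next member. Other gene models on the same strand cover 83.7% of the exon length of Septin5, so its level per kb is uncertain in both tissues. Pi4ka, a kinase that makes phosphatidylinositol phosphate at the plasma membrane, followed at 35.1 CPM per kb (31.3 to 39.8), and Zdhhc8, an enzyme that adds palmitate to proteins, at 33.7 (28.1 to 38.0). The median of all tested genes with a known length was 3.47 CPM per kb in cortex and 3.56 in hippocampus. In hippocampus Septin5 came first at 41.0 CPM per kb (35.6 to 45.0), then Rtn4r at 37.5 (29.0 to 42.3), Aifm3 at 34.9 (26.8 to 43.7), Lztr1, which marks Ras proteins for breakdown, at 30.3 (27.1 to 37.6), and Pi4ka at 25.6 (22.2 to 27.8). Neighbours in that order overlapped there too.

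At the other end were 5 members that were measured in every library but at low levels. In cortex the medians were 0.817 CPM per kb for Gnb1l, a WD-repeat protein, 0.705 for Serpind1, a clotting inhibitor made mainly by liver, and 0.558 for Scarf2, a scavenger receptor family member. Cdc45, a part of the helicase of DNA replication, had 0.352, and Tbx1, the T-box factor of pharyngeal and heart development, had 0.263. Hippocampus medians were 0.833 for Gnb1l, 0.542 for Serpind1, 0.548 for Scarf2, 0.455 for Cdc45 and 0.376 for Tbx1. Tbx1 rested on 12 to 40 reads a library in cortex and 19 to 55 in hippocampus. Tssk2, a kinase of the testis, held 0 to 8 reads a library in cortex and 0 to 7 in hippocampus. Gp1bb, a platelet receptor subunit, held 16 reads in all in each tissue, and Gsc2, a homeobox gene, 3 reads in all in cortex and 2 in hippocampus. These 3 genes held too few counted reads to compare groups. For Gp1bb this need not be a matter of depth, because other gene models on the same strand cover 92.9% of its exon length.

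**Figure D1:**
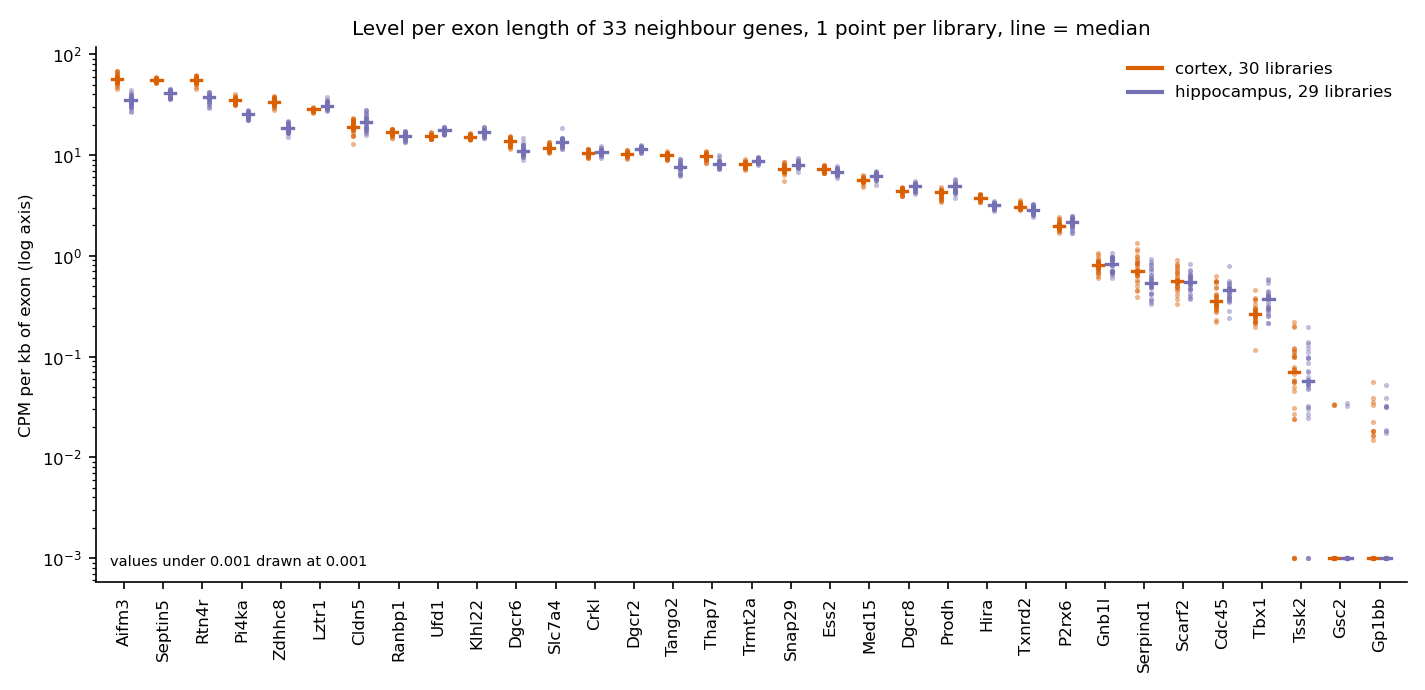
Level of the 33 neighbour genes in CPM per kb of exon on a log axis, with 1 point per library and a line at the median of each tissue (cortex 30 libraries, hippocampus 29). Aifm3, Septin5 and Rtn4r lead in cortex, and Tbx1 is the lowest of the 30 tested genes, with a median of 0.263 in cortex.

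The first comparison asked how the members differ between hippocampus and cortex of the same animals. In the 8 wild-type animals with both tissues 21 of 30 members passed the test (edgeR quasi-likelihood test with the animal as a block, adjusted p under 0.05), 11 higher and 10 lower in hippocampus. Of all tested genes 61.1% passed the same test, 31.3% higher and 29.8% lower, so that the share among members is near the background. The median log2 difference, hippocampus minus cortex, was 0.02 over the members and 0.01 over all genes. In Slc25a1 het 20 members passed against a background of 59.4%, in Mrpl40 het 21 against 61.3%, and in double het 18 against 57.0%. Members called the same way in all 4 genotypes were 13, against 45.4% of genes tested in all 4. Of these 13, 9 were lower in hippocampus (Zdhhc8, Aifm3, Rtn4r, Pi4ka, Septin5, Tango2, Dgcr6, Hira and Thap7) and 4 higher (Ufd1, Snap29, Prodh and Dgcr2), where the background was 22.8% lower and 22.6% higher. The 5 members called in none were Scarf2, Ess2, Gnb1l, P2rx6 and Crkl. Without the 6 animals that go against their labels 19, 18 and 17 members passed in wild type, Slc25a1 het and double het, and without the 3 hippocampus libraries that stood apart 20, 20 and 17 passed in wild type, Mrpl40 het and double het.

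Membrane traffic and lipid signalling genes were the role group with the most falls. The role groups were made with earlier results of these data known. In wild type 61.1% of all tested genes passed, 31.3% higher and 29.8% lower, which is the background for every role group. All 5 members passed the test in every genotype, with 4 lower in hippocampus and Snap29 higher. Zdhhc8 had the widest gap of all members in wild type. Wild-type cortex ranged from 155 CPM through a median of 162 to 183, and wild-type hippocampus from 81.0 through 86.7 to 93.6. Across the mutant groups cortex medians lay between 152 and 170.4 CPM and hippocampus medians between 84.6 and 97.8. The lowest cortex library of any genotype, at 137 CPM, was above the highest hippocampus library, at 105.9. The log2 difference in wild type was -0.91 ± 0.038 (SE, edgeR adjusted p 1.64e-11), a hippocampus level of 53.2% of that in cortex, and it was negative in 29 of 29 animals.

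Pi4ka ranged from 352 through 387 to 422 CPM in wild-type cortex and from 250.2 through 279 to 305 in wild-type hippocampus, again with no overlap in any genotype. Its log2 difference was -0.47 ± 0.033 (SE, edgeR adjusted p 4.7e-09). Septin5 ranged from 209 through 215 to 226 CPM in wild-type cortex and from 142 through 164 to 168 in wild-type hippocampus, a log2 difference of -0.42 ± 0.035 (SE, edgeR adjusted p 3.75e-08). Tango2, a protein linked to the Golgi and to metabolic crises in humans, was lower by a smaller step, with a log2 difference of -0.30 ± 0.041 in wild type (edgeR adjusted p 1.15e-05), and its tissue ranges overlapped. Pi4ka, Septin5 and Tango2 were lower in hippocampus in 29 of 29 animals. Snap29, a SNARE of membrane fusion, went the other way, at 0.13 ± 0.046 (edgeR adjusted p 0.0256). The partner genes of these members, listed from textbook knowledge, were SNAREs and septins and the Pi4ka complex. Counts in these lists stand against the background of 31.3% higher and 29.8% lower over all tested genes. Of 14 SNAREs and septins 2 were higher and 9 lower in hippocampus, with Stx1a at -2.33 and Septin11 at -0.91. Of 7 genes of the Pi4ka complex 1 was higher and 4 lower, with Ttc7b at -0.63 and Ttc7 at -1.13.

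In wild type Aifm3 and Rtn4r had the widest gaps after Zdhhc8, while in Slc25a1 het that of Tbx1 (0.79) was wider than theirs. Rtn4r ranged from 98.2 through 107 to 119.9 CPM in wild-type cortex and from 57.3 through 71.3 to 80.0 in wild-type hippocampus. The lowest cortex library of any genotype had 88.4 CPM and the highest hippocampus library 81.9. The log2 difference in wild type was -0.61 ± 0.046 (SE, edgeR adjusted p 1.31e-08), negative in 29 of 29 animals. Aifm3 ranged from 222 through 273 to 316 CPM in wild-type cortex and from 141 through 166 to 193 in wild-type hippocampus. Its wild-type log2 difference was -0.71 ± 0.075 (SE, edgeR adjusted p 8.84e-06), and 29 of 29 animals were lower in hippocampus. The sequences just before the starts of these 3 genes are shown because they are the members with the largest tissue difference in wild type. They come from RefSeq (GRCm38.p6), run 5′ to 3′ on the gene's strand, and capitals mark GC boxes (GGGCGG on either strand). For Zdhhc8 it is chr16:18235137-18235386 (minus strand), for Rtn4r chr16:18127392-18127641 (plus strand) and for Aifm3 chr16:17489427-17489610 (plus strand), which stops 67 bases short of the RefSeq start.
Zdhhc8: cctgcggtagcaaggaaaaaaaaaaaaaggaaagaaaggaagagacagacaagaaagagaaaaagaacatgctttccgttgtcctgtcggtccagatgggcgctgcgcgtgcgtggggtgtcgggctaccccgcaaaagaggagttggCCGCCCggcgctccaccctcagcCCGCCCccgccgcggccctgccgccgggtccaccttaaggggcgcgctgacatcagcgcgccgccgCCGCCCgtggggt
Rtn4r: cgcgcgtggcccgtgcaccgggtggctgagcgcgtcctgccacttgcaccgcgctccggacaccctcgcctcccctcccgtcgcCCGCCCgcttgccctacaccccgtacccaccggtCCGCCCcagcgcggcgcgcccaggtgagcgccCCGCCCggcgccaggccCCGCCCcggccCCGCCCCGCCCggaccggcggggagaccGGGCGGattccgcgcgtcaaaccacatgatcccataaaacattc
Aifm3: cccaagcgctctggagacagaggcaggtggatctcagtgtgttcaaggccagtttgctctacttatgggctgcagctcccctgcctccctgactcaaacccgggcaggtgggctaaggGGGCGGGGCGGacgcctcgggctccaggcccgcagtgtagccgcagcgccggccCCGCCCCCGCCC
The stretches hold 3 GC boxes in Zdhhc8, 7 in Rtn4r and 4 in Aifm3, and their GC content is 64%, 77.2% and 69.6%.

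Promoters of 31 members could be matched to RefSeq windows from 250 bases before to 50 after the start. Septin5 and Slc7a4 were not matched. The RefSeq start nearest to the GENCODE start was used. It lay 9944 bases away for Med15, 6834 for Dgcr2, 1013 for Prodh, 524 for Lztr1 and 515 for Ufd1, so these windows describe other starts. A GC box occurred in 21 of the 31 members and in 35.7% of 32851 promoters of the genome, a CCAAT box (CCAAT) in 13 and in 37.4%, and a TATA box (TATAAA) in 5 and in 13.6%. An ETS site (CCGGAAG) occurred in 7 and in 8.86% of all promoters, and a cyclic AMP element (TGACGTCA) in 1 and in 1.79%. The NRF1 and YY1 sites were in 0 member windows and in 0.971% and 0.852% of all. Both strands were searched and motifs may overlap. Windows of Ranbp1 and Trmt2a share 288 bases and those of Cdc45 and Ufd1 179, so a motif there can count for both members. The windows at other starts were kept in these counts. Median GC content was 63.3% in members and 52.7% over all promoters, and the median ratio of observed to chance CpG was 0.766 and 0.384. A match says only that the letters are in the window.

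Cell surface and signalling genes moved little apart from Rtn4r. Of 7 tested members Cldn5 and Dgcr2 were higher in wild-type hippocampus and Rtn4r lower, while Crkl, Gnb1l, P2rx6 and Scarf2 did not pass. Dgcr2, a membrane protein with a role in adhesion, ranged from 67.2 through 68.1 to 70.1 CPM in wild-type cortex and from 72.0 through 76.4 to 85.3 in wild-type hippocampus. Its log2 difference was 0.19 ± 0.033 (SE, edgeR adjusted p 0.000157), small but of 1 sign in 29 of 29 animals. Of 9 genes of Nogo receptor signalling 2 were higher in hippocampus and 4 lower, among them Lgi1 at 0.90 and Lingo1, a co-receptor of Rtn4r, at -1.35. Crkl, an adaptor of growth factor receptors, had 0.05 ± 0.045 in wild type, with a 95% interval of -0.04 to 0.15.

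Genes of replication, nuclear transport and protein turnover included 3 rises and no fall in wild type. Ufd1, which guides ubiquitinated proteins to the Vcp segregase, ranged from 62.6 through 67.1 to 69.2 CPM in wild-type cortex and from 69.3 through 77.5 to 82.7 in wild-type hippocampus, a log2 difference of 0.22 ± 0.039 (SE, edgeR adjusted p 0.000169). It was higher in 28 of 29 animals. Klhl22, an adaptor of the Cul3 ubiquitin ligase, ranged from 75.6 through 76.4 to 82.5 CPM and from 77.9 through 87.3 to 98.8 CPM, a difference of 0.18 ± 0.038 (SE, edgeR adjusted p 0.000787) with overlap between the tissues. Lztr1 was at 0.14 ± 0.037 (edgeR adjusted p 0.00386). Cdc45 and Ranbp1, a cofactor of the transport protein Ran, did not pass in wild type, with values of 0.18 and -0.06. Ranbp1 was called lower in the 3 other genotypes. Their partners were mixed. Of 7 Vcp cofactors 3 were higher and 1 lower (Nploc4 -0.18, Plaa 0.15). Of 11 Cul3 and Ras adaptors 4 were higher and 5 lower (Rapgef1 -0.30, Hras -0.29), and of 8 genes of the Ran cycle 3 were higher and 3 lower (Rangap1 -0.53, Kpnb1 0.23). Of 13 replication helicase genes 7 were higher and 2 lower, with Mcm6 at 2.75 and Mcm3 at 0.85.

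Among chromatin, transcription and RNA genes 3 of 7 tested rose in wild-type hippocampus (Dgcr8, Med15 and Tbx1) and 2 fell (Hira and Thap7). Hira, the chaperone that deposits the histone variant H3.3, had 23.1 CPM as its median in wild-type cortex and 19.4 in hippocampus, a log2 difference of -0.27 ± 0.049 (SE, edgeR adjusted p 0.000201), lower in 29 of 29 animals. Dgcr8, the partner of Drosha in making microRNAs, was at 0.17 ± 0.043 (edgeR adjusted p 0.00295), and Med15, a Mediator subunit, at 0.10 ± 0.035 (edgeR adjusted p 0.02). Tbx1 ranged from 0.83 through 0.927 to 1.32 CPM in wild-type cortex and from 0.753 through 1.34 to 2.02 in hippocampus. Its difference of 0.43 ± 0.163 (SE, edgeR adjusted p 0.0324) no longer passed with no filter on low counts (adjusted p 0.0538) or with DESeq2 (adjusted p 0.122), and 6 of 8 animals were higher. Of 9 genes of histone H3.3 and its chaperones 3 were higher and 2 lower in hippocampus. H3f3a (0.63) and H3f3b (0.29), named here, encode H3.3 itself. Of 9 microRNA processing genes 4 were higher and 1 lower (Ago1 0.54, Drosha -0.25), and of 17 Mediator genes 9 were higher and 2 lower (Med13 0.22, Med8 -0.24).

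Of 4 mitochondrial and metabolic members Aifm3 fell and Prodh and Slc7a4 rose in wild type, while Txnrd2, the mitochondrial thioredoxin reductase, did not pass, at -0.02. Prodh, which starts the breakdown of proline, was at 0.15 ± 0.048 (edgeR adjusted p 0.0107) and was called higher in all 4 genotypes. Slc7a4, of the amino acid transporter family, ranged from 44.8 through 48.9 to 52.4 CPM in wild-type cortex and from 51.5 through 56.7 to 61.6 in hippocampus, at 0.23 ± 0.040 (SE, edgeR adjusted p 0.000109). Of 6 proline and glutamate genes 3 were higher and 3 lower (Aldh4a1 0.45), and of 6 genes of the thioredoxin system 2 were higher and 2 lower (Txnrd1 0.43, Sod2 -0.28). The last group held Dgcr6, a small protein whose function is not well known, and Serpind1, both lower in wild type. Serpind1 ranged from 0.975 through 1.52 to 2.57 CPM in wild-type cortex and from 0.731 through 1.10 to 1.83 in hippocampus, at -0.59 ± 0.15 (SE, edgeR adjusted p 0.00285), with overlap and with few reads. It was called lower in 2 of the 4 genotypes. Over the 12 partner lists 116 genes were measured, of which 43 were higher and 38 lower in wild-type hippocampus, where 31.3% of all tested genes were higher and 29.8% lower.

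The tissues also differ in the cell types they hold, and fewer cells of a type cannot be told apart here from less RNA per cell. In wild type 6 of 8 neuron markers were lower in hippocampus (median -0.24) and none was higher. Of 8 astrocyte markers 4 were higher and 1 lower. Of 12 endothelial markers 1 was higher, which was the member Cldn5 itself, and 4 were lower. Of 10 microglia markers 2 were higher and of 8 oligodendrocyte markers none passed. Summed neuron markers ranged from 7959 to 9821 CPM in cortex and from 5040 to 8728 in hippocampus, astrocyte markers from 1719 to 2207 and from 2243 to 3277, and choroid plexus markers from 2.70 to 14.0 and from 19.1 to 94.7. These sums are over all 6 choroid plexus markers, of which 2, Kl and Ttr, passed the filter on low counts, and both were higher in hippocampus. The part of these marker genes in the tissue differences of the members was not tested.

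**Figure D2:**
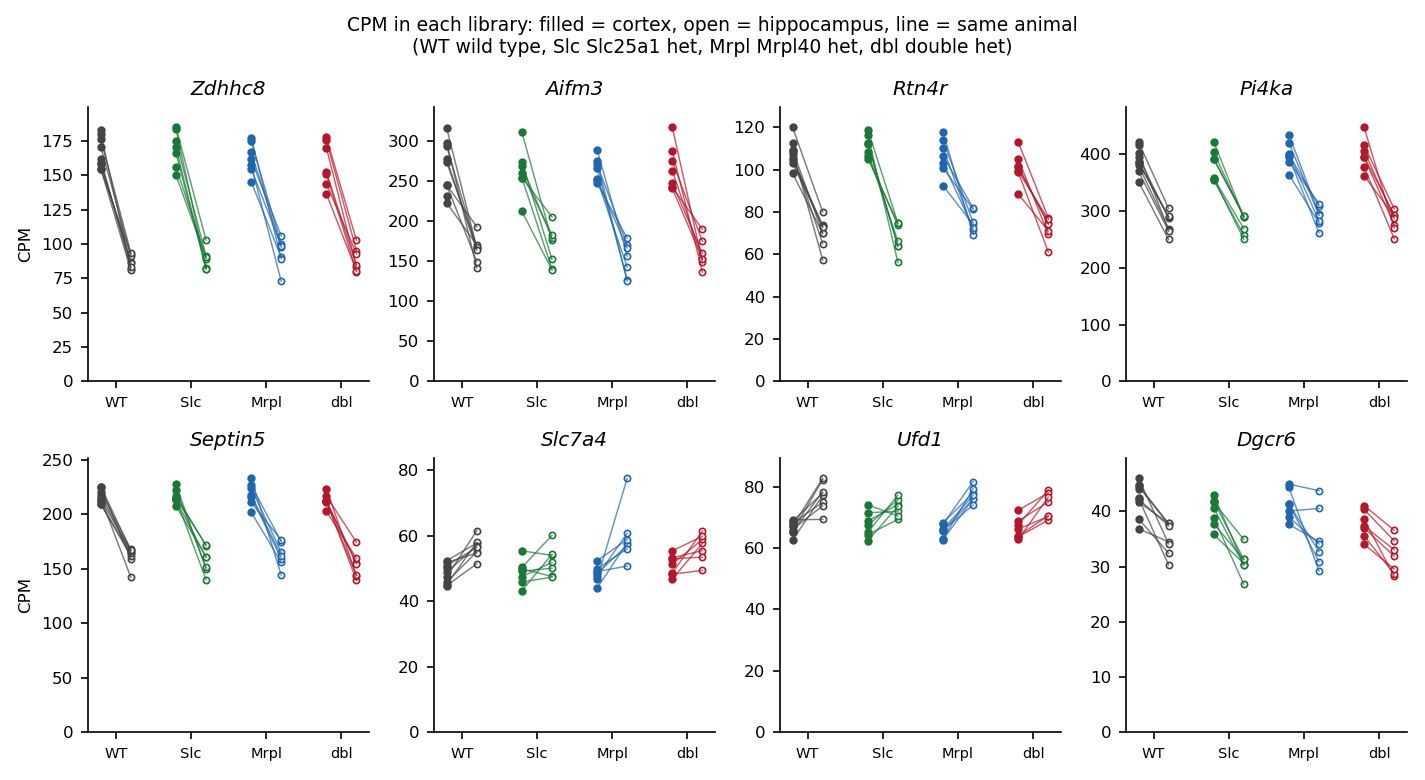
CPM of selected members in each library, with cortex as filled and hippocampus as open points, a line joining the tissues of an animal, and the 4 labelled genotypes side by side from an axis that starts at 0. For Zdhhc8 every line falls, from 137 CPM or more in cortex to 105.9 or less in hippocampus.

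**Figure D3:**
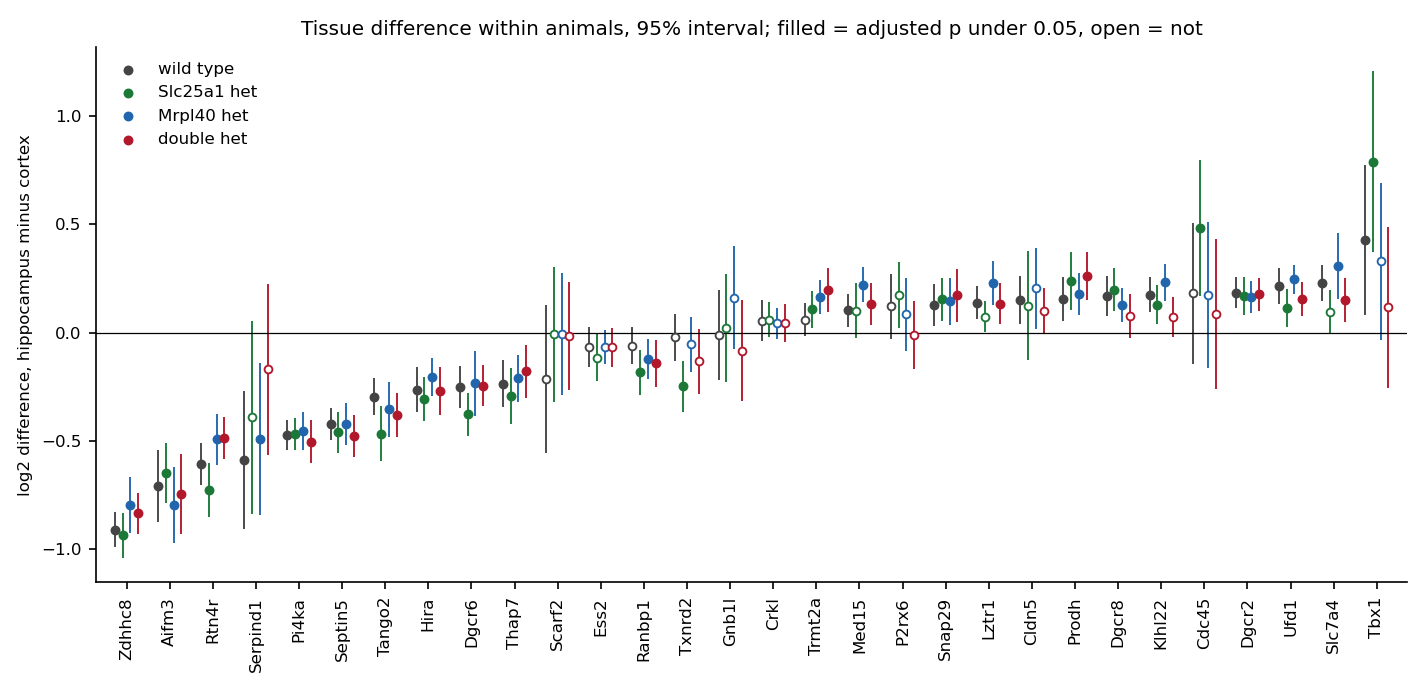
Log2 difference, hippocampus minus cortex, of the 30 tested members within each labelled genotype, ordered by the value in wild type, with 95% intervals and filled points where the edgeR adjusted p is under 0.05. The members from Zdhhc8 (-0.91 in wild type) to Tango2 lie below 0 in all 4 genotypes, and Ufd1 and Dgcr2 above.

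The second question was whether the neighbours differ between the labelled genotypes, within each tissue. None of the 30 members passed the edgeR test in any of the 12 comparisons (3 against wild type, 2 between double and single het, and the interaction, in each tissue). The background was also near 0. In cortex 0% of tested genes passed for Slc25a1 het, 0.0294% for Mrpl40 het, 0.0686% for double het, 0.0588% and 0.0049% for double het against Slc25a1 het and Mrpl40 het, and 0% for the interaction. In hippocampus the shares were 0%, 0.00496%, 0.00992%, 0%, 0% and 0% in the same order. Members with an unadjusted p under 0.05 numbered 0, 3, 5, 4, 1 and 0 in cortex and 4, 1, 2, 0, 1 and 0 in hippocampus. Over all tested genes the shares at the same unadjusted p were 3.17%, 6.94%, 10.9%, 9.92%, 6.94% and 5.35% in cortex and 7.77%, 8.19%, 5.28%, 9.04%, 4.68% and 3.39% in hippocampus. DESeq2 called 0 members as well, with a background against wild type of 0%, 0.116% and 0.711% in cortex and 0%, 0.0523% and 0.00967% in hippocampus. On simulated counts the edgeR test recovered 55.2% of changes of 1.2-fold and 93.9% of changes of 2-fold for double het in cortex. In hippocampus it recovered 34.3% and 86.4%, so that small changes could go uncalled. The simulation changed 66 or 67 genes at each fold of 1.2, 1.5 and 2, and no simulated animal went against its label. More changed genes ease the adjusted test, so that recovery in the data may be lower. None of the 116 partner genes passed in these comparisons either.

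The intervals say how large a change between labelled groups could still be. Against wild type, 24 of the 30 members had all 6 of their 95% intervals within 0.4 of 0 on the log2 scale. The 6 others were Scarf2, Cdc45, Tbx1, Gnb1l, Cldn5 and Serpind1, of which all but Cldn5 are among the 5 lowest members per length. The lowest bound of any interval was -0.66, for Scarf2 in cortex labelled Mrpl40 het, and the highest was 0.76, for Serpind1 in hippocampus labelled double het. A level at 50% of wild type in a whole labelled group would lie at -1. These intervals include the 6 animals that go against their Slc25a1 labels, and bounds without them are not given. The Mrpl40 labels could not be checked. A change carried by only part of a labelled group would look smaller. In all 6 comparisons 4 members lay below wild type (Scarf2, Cldn5, Dgcr6 and Thap7) and 4 above (Serpind1, Snap29, Crkl and Dgcr2). The comparisons of a tissue share their wild-type libraries, and the share of all tested genes with 1 sign throughout was not computed. These counts are therefore not read as a result about the members.

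**Figure D4:**
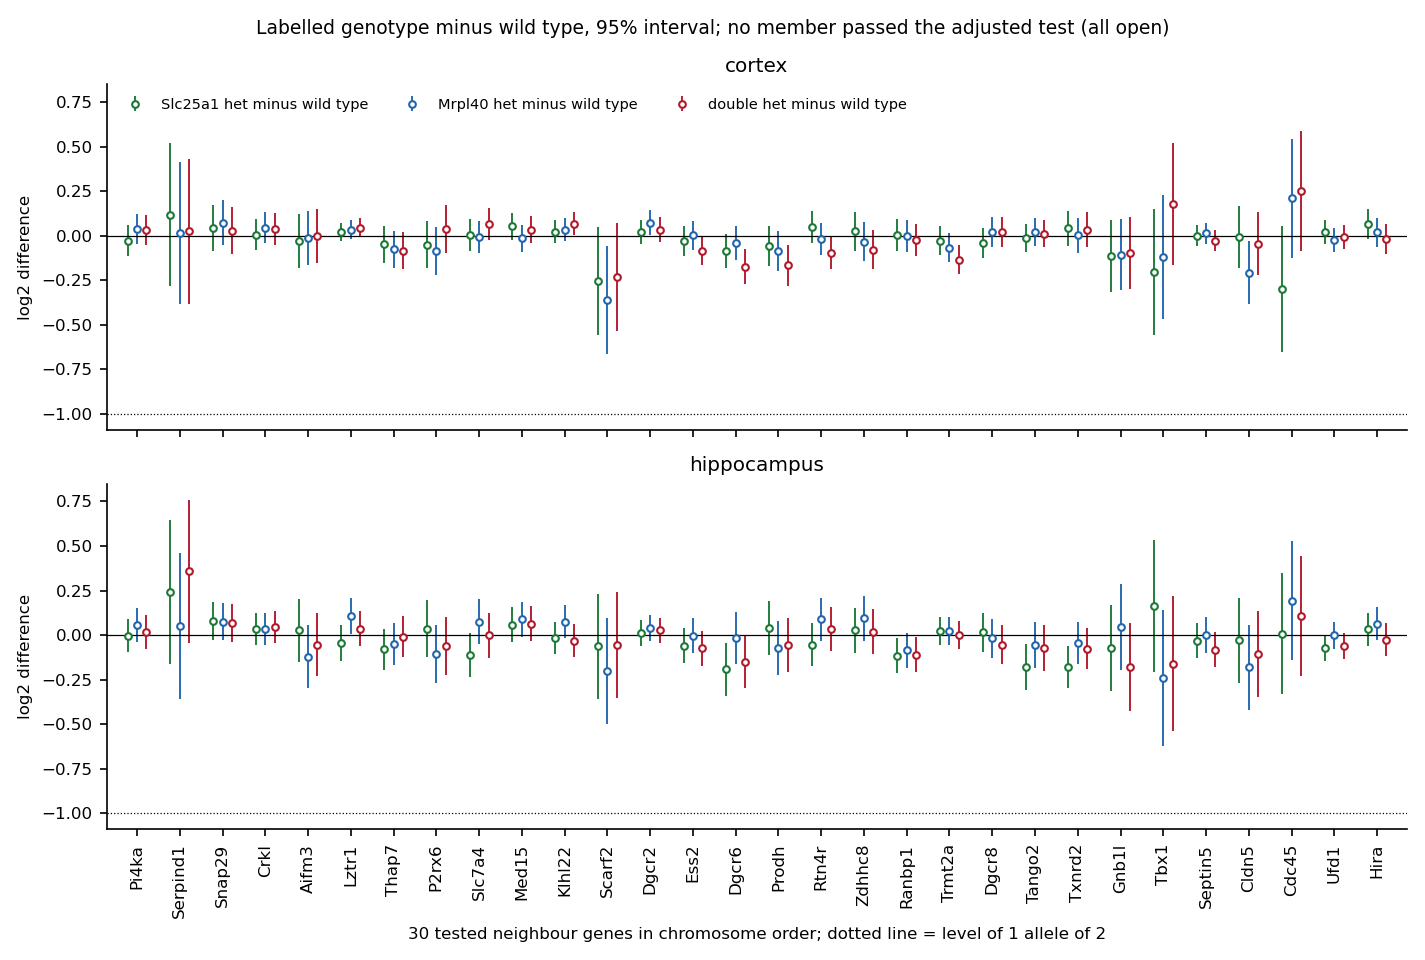
Log2 difference from wild type of the 30 tested members in chromosome order, for the 3 labelled mutant genotypes in cortex (top) and hippocampus (bottom), with 95% intervals and a dotted line at -1, a level of 50%. No member passed the adjusted test, and the lowest bound is -0.66, with all labelled animals kept.

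The neighbours next to the altered genes were looked at one by one. Gsc2, next to Slc25a1, had too few reads. Dgcr6, on its other side, ranged from 36.8 through 42.4 to 46.0 CPM in wild-type cortex, 35.8 through 40.6 to 42.9 in Slc25a1 het, 37.6 through 41.3 to 44.9 in Mrpl40 het and 34.0 through 37.3 to 41.0 in double het. The groups overlapped, and double het was the lowest by median. Its log2 difference from wild type in cortex was -0.09 for Slc25a1 het, -0.04 for Mrpl40 het and -0.17 ± 0.047 for double het. The last had the smallest p of any member against wild type (unadjusted 0.000803) and an edgeR adjusted p of 0.129. DESeq2 gave an adjusted p of 0.0725, and without the 6 animals the difference was -0.20 with an edgeR adjusted p of 0.37. In hippocampus Dgcr6 ranged from 30.3 through 35.9 to 37.8 CPM in wild type, 26.8 through 30.5 to 34.9 in Slc25a1 het, 29.2 through 34.1 to 43.7 in Mrpl40 het and 28.2 through 31.9 to 36.6 in double het. The differences there were -0.19 ± 0.072, -0.01 and -0.15 ± 0.072 (edgeR adjusted p 0.558, 0.971 and 0.93). Dgcr6 lay below wild type in all 6 comparisons and passed the test in none.

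Hira, whose start lies 175 bases from that of Mrpl40, was at 0.07, 0.02 and -0.02 in cortex of Slc25a1 het, Mrpl40 het and double het, and at 0.03, 0.06 and -0.03 in hippocampus. Its medians lay between 22.9 and 24.4 CPM in cortex and between 19.1 and 20.3 CPM in hippocampus. Ufd1, on the other side of Mrpl40, was at 0.02, -0.02 and -0.01 in cortex and -0.07, -0.00 and -0.06 in hippocampus, and its sign in Mrpl40 het hippocampus turned with the processing. Both genes had all 6 intervals within 0.4 of 0. A level at 50% of wild type in a whole labelled group was outside every one of them. The intervals include the 6 animals that go against their labels.

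The members with the smallest p in the other comparisons were as follows. In cortex of double het Trmt2a, a tRNA methyltransferase, had medians of 44.8 CPM in wild type (42.3 to 46.4) and 40.4 in double het (37.5 to 45.7), a log2 difference of -0.13 ± 0.040 (edgeR adjusted p 0.171). Prodh had 34.3 CPM in wild type (29.6 to 35.2) and 28.9 in double het (26.7 to 33.7), a difference of -0.17 ± 0.056 (edgeR adjusted p 0.242). The groups overlapped in both. In cortex of Mrpl40 het Scarf2 had medians of 2.07 CPM (1.43 to 2.61) against 2.43 in wild type (1.78 to 3.48), at -0.36 ± 0.149 (edgeR adjusted p 0.662), and Dgcr2 had 72.2 (68.2 to 74.7) against 68.1 (67.2 to 70.1), at 0.07 ± 0.034 (edgeR adjusted p 0.69). In cortex of Slc25a1 het Cdc45 had a median of 1.09 CPM (0.81 to 1.21) against 1.26 in wild type (1.04 to 1.70), at -0.30 ± 0.175. Scarf2 had 2.22 CPM there (1.28 to 2.72), at -0.25 ± 0.149, each with an edgeR adjusted p of 1.

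In hippocampus of Slc25a1 het Txnrd2 ranged from 11.2 through 11.6 to 12.5 CPM against 12.1 through 13.4 to 13.7 in wild type, at -0.18 ± 0.057 (edgeR adjusted p 0.5). Tango2 had a median of 56.5 CPM (48.7 to 61.9) against 61.2 (58.3 to 72.7), at -0.18 ± 0.064 (edgeR adjusted p 0.53). Groups overlapped in both genes. In Mrpl40 het hippocampus Lztr1 had a median of 205 CPM (182 to 230.01) against 186 (166 to 206) in wild type, at 0.11 ± 0.048 (edgeR adjusted p 0.59). Med15 had 76.2 CPM (68.2 to 78.3) against 70.1 (59.2 to 75.8), at 0.09 ± 0.048 (edgeR adjusted p 0.631). Ranbp1 had 25.5 CPM (24.2 to 26.9) against 27.6 (23.9 to 28.9), at -0.09 ± 0.048 (edgeR adjusted p 0.64). In double het hippocampus Ranbp1 had 25.0 CPM (22.3 to 26.8), at -0.11 ± 0.048 (edgeR adjusted p 0.918), and Serpind1 1.32 CPM (1.04 to 2.01) against 1.10 (0.731 to 1.83), at 0.36 ± 0.197 (edgeR adjusted p 0.989). Whether the effect of a genotype differed between the tissues was tested with an interaction term, and 0 of 30 members passed in the 3 contrasts, against a background of 0%, 0% and 0.0234%. The smallest p were those of Txnrd2 for Slc25a1 het, with -0.22 ± 0.076 (unadjusted p 0.00693, edgeR adjusted p 0.816), and of Trmt2a for double het, with 0.14 ± 0.052 (unadjusted p 0.00969, edgeR adjusted p 0.877).

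Animal by animal, cortex and hippocampus were only weakly tied, in the members as over all genes. Over 29 animals, with the mean of each labelled genotype removed, 0 of 30 members had a correlation between cortex and hippocampus that passed a permutation test adjusted over all genes, against a background of 1.19%. The median r was 0.16 over members and 0.11 over all genes. Of the 30 members 22 were above 0, and this share was not computed over all genes. Pi4ka had the highest r, 0.49 (Spearman rho 0.484, permutation p 0.0115, adjusted p 0.212), and 0.54 without the 2 animals farthest from the median. Without the 6 animals that go against their labels Pi4ka had r 0.44 (adjusted permutation p 0.499), and 0.24 after leaving out 2 more. Snap29 was then highest, at 0.47 (adjusted permutation p 0.492).

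Within each tissue Cldn5, the tight junction protein of blood vessels in the brain, followed the other vessel genes. Within cortex its log2 CPM correlated with the mean of 11 other endothelial markers at r 0.64 (rho 0.58, permutation p 0.00027 in both raw and adjusted form, n = 30), and at 0.52 without the 2 libraries farthest from the median of the marker mean. Within hippocampus r was 0.79 (rho 0.731, permutation p 3e-05, adjusted over 2 relations 6e-05, n = 29) and 0.72 without those 2. Between the tissues Cldn5 was called higher in hippocampus in wild type alone, 1 of the 4 genotypes. Its log2 differences, hippocampus minus cortex, lay between 0.10 and 0.20 over the 4 genotypes. The other endothelial markers that passed in wild type were lower in hippocampus. Cldn5 had medians of 27.2 CPM in wild-type cortex (25.1 to 33.0) and 25.7 in Mrpl40 het (18.2 to 27.4), a log2 difference of -0.21 ± 0.086 (edgeR adjusted p 0.664). In the same comparison 0 of 12 endothelial markers, Cldn5 among them, lay above wild type, with a median of -0.12. The share of all tested genes below wild type was not computed, so this count is not read as a result about the markers. The part of vessel content in the Cldn5 value was not tested.

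**Figure D5:**
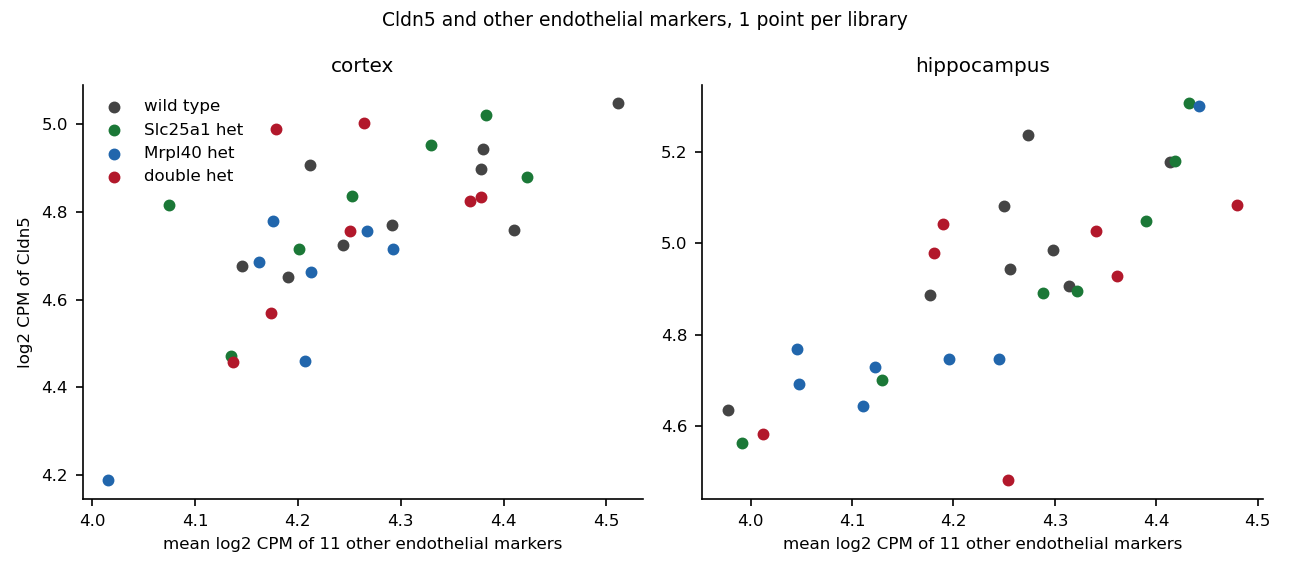
Log2 CPM of Cldn5 against the mean log2 CPM of 11 other endothelial markers, with 1 point per library and colours for the labelled genotypes, in cortex (left) and hippocampus (right). Libraries with more of the other markers have more Cldn5, with r 0.64 in cortex and 0.79 in hippocampus once genotype means are removed.

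A few members are read in opposite directions from starts that lie close together. In GENCODE vM21 starts lay within 1000 bases in Pi4ka and Snap29, Dgcr2 and Tssk2, Ranbp1 and Trmt2a, Cdc45 and Ufd1, and Mrpl40 and Hira. The gene models of 3 pairs overlap at their 5′ ends, with starts 328 bases apart in Pi4ka and Snap29, 53 in Ranbp1 and Trmt2a and 208 in Cdc45 and Ufd1. For the 3 pairs with both members tested, 6 correlations were computed over libraries of a tissue with genotype means removed. Ranbp1 and Trmt2a, whose RefSeq promoter windows share 288 bases, had r 0.46 in hippocampus (permutation p 0.00905, adjusted 0.0543) and rho 0.52 (adjusted p 0.0213), and r 0.522 without 2 libraries. In cortex r was 0.264 (adjusted p 0.289). Pi4ka and Snap29 had r 0.439 in hippocampus (adjusted permutation p 0.0752) and 0.136 in cortex, and Cdc45 and Ufd1 -0.342 in cortex and -0.14 in hippocampus. Without the 6 animals the rho of Ranbp1 and Trmt2a in hippocampus had an adjusted p of 0.156.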

How the data were processed

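Poly(A) RNA of cortex and hippocampus was sequenced in 59 paired-end libraries of 30 male mice. The authors deposited whole-number counts for each gene and library. They also deposited normalized counts, a signal that equals the count over 1 factor for each library (largest relative deviation 9.85e-10). FastQC, HISAT2, featureCounts, DESeq2 and the builds mm39 and GRCm39 are named, without versions, per the submitters' processing notes. The files hold no coordinates. Positions and exon lengths came from GENCODE vM21 (GRCm38) by gene ID, and promoters from RefSeq (GRCm38.p6), so that gene models may differ from those counted.

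The 34 members, their grouping by role, and the partner and marker lists were chosen with earlier results of these data known. Counts were tested with the quasi-likelihood test of edgeR 4.0.16 (TMM, its filter on low counts, robust dispersion) in R 4.3.3, with all 4 genotypes of a tissue in 1 fit, Benjamini-Hochberg adjustment over all genes and a false discovery rate of 0.05. Tissues were compared within each genotype with the animal as a block. The labels give each library its animal, and both tissues of an animal deviated from their groups with a median correlation over genes of 0.109, against -0.0099 for tissues of different animals. Log2 CPM used a prior count of 2. Correlations used 100000 permutations within genotype, two-sided. Alternatives were DESeq2 1.42.0, its size factors in edgeR, no filter, a fold of at least 1.2, no animal block, the replicate number as a block, only the genotypes compared, limma 3.58.1 on log2(normalized count + 1), a prior count of 0.5, and fits without the 6 animals. Fits without hippocampus libraries of animals 8, 22 and 30 were chosen after seeing the data. The fits were tested on simulated data: for the tissue difference in wild type changes of 1.2-fold were recovered in 38.8%, of 1.5-fold in 71.6% and of 2-fold in 92.4% among 19300 genes, with 5 false calls. Python 3.11.15 and matplotlib 3.10.9 drew the figures.

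Lowest, median and highest values are given, per tissue for the 5 members highest and lowest per length and per group for the 5 largest rises and falls between tissues past the test in wild type, the 3 smallest p of each genotype against wild type, and the members next to Slc25a1 and Mrpl40. Of each partner list up to 2 genes with the smallest p are named, and 1 such gene is not reported here. Other members named were chosen after their values were seen.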

Additional observations from a re-analysis of the deposited data

Results flagged for a closer look

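In each labelled group of a tissue, the library with the highest or lowest CPM of a member was compared with the rest of its group by Dixon's criterion. Of 240 groups 15 held a library that stood apart (6.25%), where chance gives about 1 in 20. Animal 8 (wild type) had 3 of them, all in hippocampus, and its library also stood apart in marker sums. Septin5 was at 142 CPM against 159 to 168 in the others, Txnrd2 at 12.1 against 13.1 to 13.7, and Serpind1 at 1.83 against 0.731 to 1.22. Animal 22 (Mrpl40 het), likewise apart in marker sums, had Slc7a4 at 77.5 CPM in hippocampus against 50.7 to 60.8. Animal 9 (wild type) had 2, both in cortex: Dgcr8 at 29.9 CPM against 33.3 to 36, and Tbx1 at 1.32 against 0.83 to 1.01.

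The other groups had 1 such library each. In cortex Prodh was at 29.6 CPM in wild-type animal 2 (others 33.7 to 35.2), Med15 at 55.5 in Slc25a1 het animal 15 (66.8 to 73) and at 58.6 in Mrpl40 het animal 19 (63.2 to 66.7), Ranbp1 at 24.7 in Mrpl40 het animal 18 (27.9 to 29.4), and Scarf2 at 2.86 in double het animal 25 (1.73 to 2.15). In hippocampus Dgcr8 was at 33.7 CPM in wild-type animal 3 (37.5 to 39.8), Trmt2a at 43.5 in Slc25a1 het animal 10 (46.6 to 48.9), Cldn5 at 39.3 in Mrpl40 het animal 23 (24.9 to 27.2), and Cdc45 at 1.3 in double het animal 28 (1.59 to 1.68). The endothelial markers of animal 23, Cldn5 among them, summed to 328 CPM in that library, against 242 to 278 in the 6 others of its group. The cause was not tested in any of these.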

How the results depend on the processing

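The members called between tissues (21 in wild type, 20 in Slc25a1 het, 21 in Mrpl40 het, 18 in double het) became 6, 8, 5 and 6 when a fold of at least 1.2 was asked for, 17, 17, 17 and 14 with DESeq2, and 20, 22, 20 and 17 without the animal block. In all 100 alternative fits of the 15 genotype and tissue-by-genotype comparisons 0 members were called. With the replicate number as a block 0 members were called too, while calls over all genes went from 0, 6, 14, 12, 1 and 0 to 0, 7, 8, 11, 4 and 2 in cortex and from 0, 1, 2, 0, 0 and 0 to 3, 0, 0, 1, 0 and 4 in hippocampus. In cortex 22 of 42 same-number pairs across genotypes correlated above 0.1, against 98 of 294 pairs with different numbers (median r 0.126 and -0.028). In hippocampus 17 of 39 did, against 104 of 276 (median r 0.043 and 0.011). The own number was the best match in 23 of 84 cases in cortex, where the group searched held 7 or 9 libraries. In hippocampus it was the best match in 11 of 78 cases, among 7 or 8 libraries. Whether the number marks a batch is not stated. Differences near 0 changed sign. Ufd1 in cortex of double het was 0.00099 with the replicate block, and Hira there 0.02 without the 6 animals. Ufd1 in hippocampus of Mrpl40 het was 0.01 with no filter, 0.0049 with DESeq2 size factors, 0.02 without the 6 animals, 0.01 with DESeq2 and 0.01 with the normalized counts. The correlation of Cdc45 and Ufd1 in hippocampus was 0.0233 without the 6 animals. The cause of these changes was not tested. Members with few reads, Tbx1, Cdc45, Serpind1, Scarf2 and Gnb1l, have the widest intervals.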
